A study of Mus musculus with 20 samples.

Results

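Gene expression of DC2 cells under fluid shear stress was compared with that of cells kept without flow, taking the libraries as pairs by replicate number. The comparison used 12 of the 20 libraries of the series, 6 under flow and 6 static. They were chosen by their titles, and flow sample n was set against static sample n, from 1 to 6. DC2 cells are an immortalized mouse line made from principal cells of the distal caput, the proximal region of the epididymis, so all 12 libraries represent 1 line. Cells of both groups were grown on fibronectin in microfluidic channels and kept in low-serum medium, which favours the growth of primary cilia, before 3 h with laminar flow at 1 dyn per cm2 or 3 h without it. The other 8 libraries, 4 with siRNA against Ift88 and 4 with control siRNA, all from cells under flow, served as a separate readout of the same genes. The labels do not say that the replicates came from separate cultures, so the p-values measure the spread between these libraries, which may in part be technical.

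Epithelial cells sense flow through stretch-activated channels, cell junctions, the cytoskeleton and the primary cilium, and calcium entry and the MAP kinase cascade are among the earliest signals. In many cell types these signals act within minutes to hours on immediate early genes, which need no new protein for their transcription and whose short-lived RNAs encode transcription factors, phosphatases that shut the cascade down, and secreted factors that reach neighbouring cells. In the epididymis, luminal fluid from the testis runs past the principal cells, whose secretion and absorption set the fluid in which sperm mature.

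The values are TPM, the abundance of a gene's transcripts corrected for their length, which sum to 1000000 in every library and keep no read depth, so the counting error of a value is unknown. Between 15543 and 16562 genes were above 0 in each library. Mitochondrially encoded transcripts took between 4.40% and 9.61% of TPM. The largest principal component of log2(TPM + 1), with 34.4% of the variance, separated replicates 1 to 3 from replicates 5 and 6, with replicate 4 between them, in both groups. The labels give no batch. The title and the table name 1 library as flow, while its treatment label reads static. Here it is flow replicate 6, and counts of calls that move by more than 1.5-fold without its pair are given both ways. Defining secretory markers of principal cells were scarce: 7 of 17 listed markers were at 0 in all 12 libraries, among them Crisp1, Lcn8 and Rnase9, and 3 passed the filter of a mean of at least 1 TPM (Cftr and Lcn2 among them). Of 11 markers of simple epithelium 5 passed it (Krt18, Krt19, Cldn4, Pax2 and Pax8), and 6 did not, among them Epcam, Cdh1 and Krt8. Of the markers of other cells, 1 of 6 for basal cells, 1 of 6 for clear cells, 2 of 9 for fibroblasts and smooth muscle, 1 of 8 for leukocytes and 0 of 7 for endothelium passed it.

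Under flow, 68 of the 11388 genes tested rose by more than 1.5-fold at an adjusted p-value under 0.05, which is 0.597% of the genes tested (limma on log2(TPM + 1) with the pair as a block and Benjamini-Hochberg adjustment over all genes). No gene fell (0.0%). In bulk RNA, a larger share of responding cells and a larger response per cell cannot be told apart. At an unadjusted p-value under 0.05, 817 genes were lower (7.17%) and 449 higher, a split that median-of-ratios scaling turned to 614 lower and 661 higher. It was 364 lower and 355 higher without pair 6, 411 and 414 without pair 3, and 1946 and 916 without pair 2. The median change of all genes was -0.03 on the log2 scale, and that of the 68 was 1.22, from 0.63 for Skil to 3.76 for Fosb. Of the 68, 13 changed by more than 2 on this scale, 28 by between 1 and 2 and 27 by less than 1. These changes are on the log2(TPM + 1) scale, which understates the change of the 20 genes with a static mean under 10 TPM. Since the calls rest on these same pairs, the following counts are descriptions: 64 of the 68 were higher under flow in 6 of 6 pairs, against 226 of all genes (1.98%), and 37 had every flow library above every static library, against 56 of all genes (0.492%). All 4 exceptions, Plk2, Cdc42ep3, Mafk and Epha2, were at or below the static level in pair 2 alone.

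**Figure D1:**
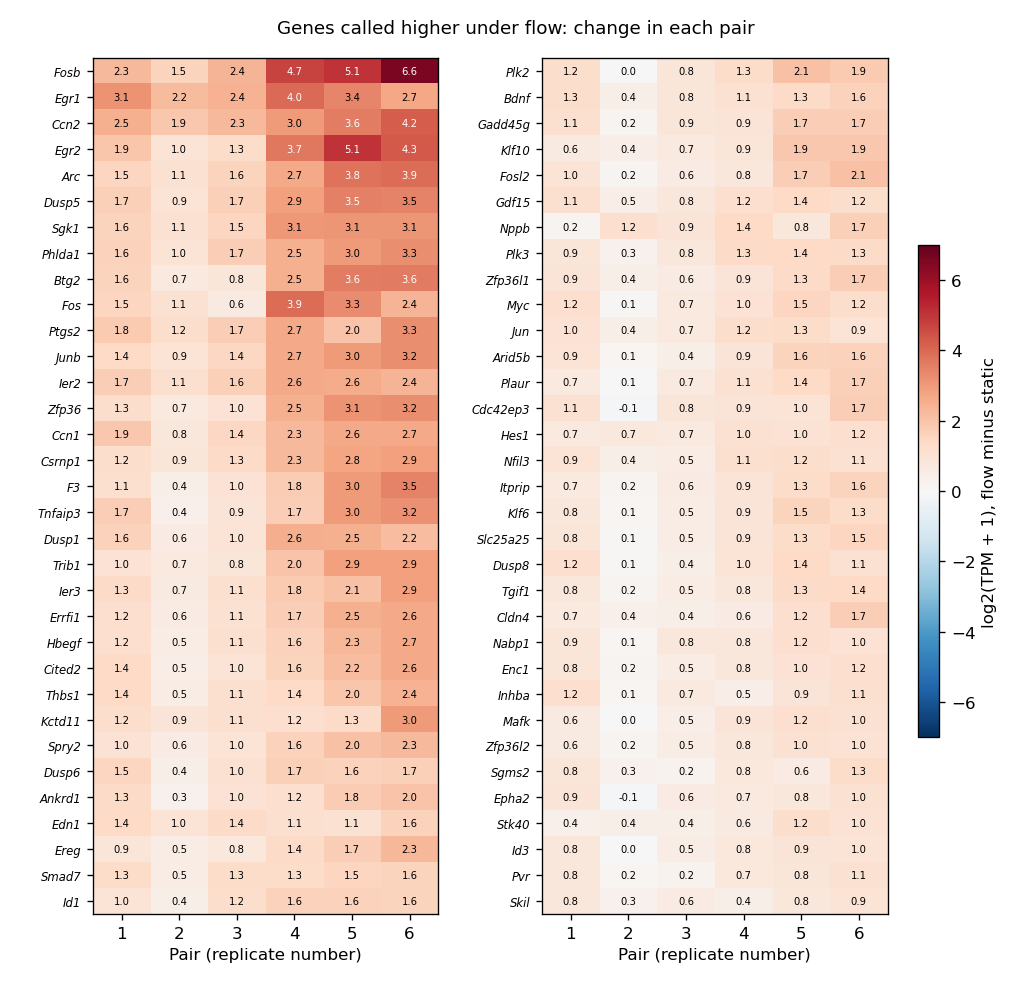
Change in log2(TPM + 1), flow minus static, of 66 of the 68 genes that rose under flow (rows, from the largest mean change at the upper left to the smallest at the lower right) in each of the 6 pairs (columns). Red is higher under flow, and the printed values are the changes. Pair 2 is the palest column, with a median over all 68 genes of 0.43, and pairs 5 and 6 are the darkest, with medians of 1.61 and 1.74.

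The size of the response differed from pair to pair. The median change of the 68 genes was 1.13, 0.43, 0.84, 1.27, 1.61 and 1.74 in pairs 1 to 6, while the median of all genes stayed between -0.09 and 0.09. In static cells the 68 genes together held between 3384 and 4031 TPM, and under flow between 4856 TPM in replicate 2 and 19960 TPM in replicate 6. The flow libraries spread over a wider range than the static ones, and every flow sum was above every static sum. More than 1.5-fold increases were seen in 23 of the 68 genes in pair 2 and in all 68 in pairs 5 and 6. The coefficient of variation of a gene's change over the pairs had a median of 51.3%. It was lowest in Edn1 (19.9%), Egr1 (22.4%) and Hes1 (24.3%) and highest in F3 (66.4%).

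The calls were repeated on 5 pairs at a time, and the genes found were then read in the pair that had been left out. Genes called higher on the other 5 pairs were higher in the left-out pair in 8 of 8 cases for pair 1, 51 of 51 for pair 3, 38 of 38 for pair 4, 33 of 33 for pair 5 and 41 of 41 for pair 6. Their median change in the left-out pair was between 0.97 and 2.30, where the share of all genes that were higher in those pairs was between 32.3% and 63.9%. Pair 2 stood apart. Without it, 135 genes were called higher and 58 lower, and in pair 2 itself 99 of the 135 were higher, with a median of 0.20, and 6 of the 58 were lower. Among the 68 genes, 8 were called in every one of these fits: Egr1, Ccn2, Ptgs2, Edn1, Ier2, Smad7, Gdf15 and Hes1. A further 15 were called in 1 of the 6, the fit without pair 2: F3, Plaur, Plk2, Fosl2, Klf10, Mafk, Dusp8, Inhba, Id3, Epha2, Arid5b, Slc25a25, Nppb, Cdc42ep3 and Stk40. Another 13 were called in 2 of the 6, namely Egr2, Btg2, Fos, Tnfaip3, Zfp36, Cldn4, Klf6, Myc, Tgif1, Trib1, Pvr, Sgms2 and Itprip. Without pair 6, whose label is in doubt, 41 of the 68 were called, and all 68 kept a higher mean. With that library taken as static, no gene was called, although 459 passed an unadjusted p-value of 0.05. Without the pair as a block 12 genes were called, all among the 68, with Egr1, Ccn2, Dusp5, Sgk1, Phlda1, Ptgs2, Edn1, Ier2, Smad7, Ccn1 and Bdnf among them.

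**Figure D2:**
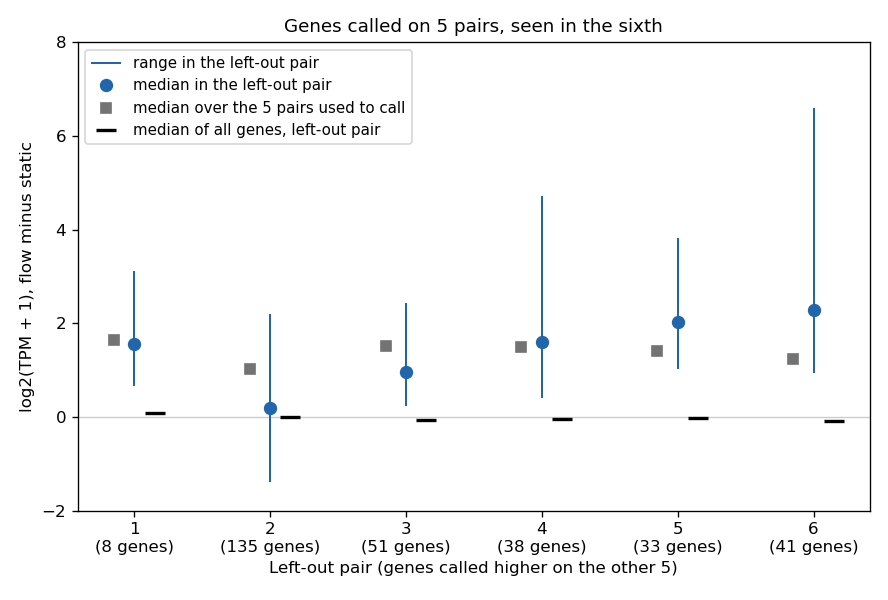
Genes called higher under flow on 5 pairs, read in the pair left out. The horizontal axis gives the left-out pair with the number of genes called on the others, and the vertical axis the change in log2(TPM + 1), flow minus static. Blue points and lines are the median and range of these genes in the left-out pair, grey squares their median over the 5 pairs used to call them, and black dashes the median of all genes. In pair 2 the median lies at 0.20, and in each other pair the whole range lies above 0.

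Immediate early transcription factors, listed together with the immediate early gene Arc, which encodes no transcription factor, had the highest share of calls among the 22 pathway lists in this fit. Other lists held it without pair 1, 4, 5 or 6, with median-of-ratios scaling and without the pair as a block. Of 30 listed genes 27 passed the filter, all 27 had a higher mean under flow, and 14 (51.9%) rose, against 0.597% of all genes. The filter takes the mean over both groups. A gene scarce in static cells, such as Egr2 here or Nppb below, could thus pass it through its flow values alone. This favours genes that are higher under flow, so the counts are descriptions. The 14 calls became 2 without pair 1, 23 without pair 2, 7 without pair 4 or pair 6, 6 without pair 5, 8 with median-of-ratios scaling and 2 without the pair as a block. The median change of the list was 1.06. Fosb, a subunit of the AP-1 dimer (chr7:19302696-19310051 on the minus strand of GRCm38, 4 exons), was between 4.41 and 187 TPM under flow (median 28.9) and between 0.74 and 4.20 TPM in static cells (median 0.91). The 3 flow libraries of replicates 4 to 6 were the highest, and the groups did not overlap. The mean change was 3.76 ± 0.56 (SE, n = 6 pairs, limma adjusted p = 0.0122, and 0.0940 without pair 1, 0.0512 without pair 5 and 0.107 without the block). Fos, another subunit of the same family, ran from 1.81 to 54.4 TPM under flow (median 12.9) and from 0.34 to 4.68 TPM in static cells (median 0.83). Here the static libraries of replicates 5 and 6 lay above the flow libraries of replicates 1 to 3, so the groups overlapped although each pair rose, and the change was 2.13 ± 0.37 (SE, n = 6 pairs, limma adjusted p = 0.0292). This call was lost without pair 1, 4, 5 or 6 (limma adjusted p = 0.180, 0.0569, 0.101 and 0.0903), with median-of-ratios scaling (0.0566) and without the block. Among the other AP-1 genes, Junb rose by 2.11, Fosl2 by 1.06 and Jun by 0.93 on the log2 scale, while Jund, the most abundant in static cells with a median of 350 TPM, changed by 0.29 with an adjusted p-value of 0.0581 (limma).

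Of the Egr zinc finger factors, which are induced by serum and growth factors in many cells, Egr1 and Egr2 rose with them. Egr1 was between 114 and 695 TPM under flow (median 388) and between 23.8 and 81.9 TPM in static cells (median 30.0). Every flow library was above every static library, and the change of 2.98 ± 0.19 (SE, n = 6 pairs) had the smallest adjusted p-value of all genes (limma, 0.000123). Egr2 was at 0.38 to 1.02 TPM in static cells (median 0.58) and at 2.04 to 53.1 TPM under flow (median 10.8), again without overlap, and rose by 2.88 ± 0.48 (SE, n = 6 pairs, limma adjusted p = 0.0247). It was no longer called without pair 1, 4, 5 or 6 (limma adjusted p = 0.148, 0.0835, 0.0542 and 0.0796), with median-of-ratios scaling (0.0552) or without the block (0.105). Egr3 changed by a similar mean of 2.84 with an SE of 0.60 and was not called (limma adjusted p = 0.0813). Its changes ran from 0.93 in pair 2 to 5.61 in pair 6. Atf3 (2.07), Nr4a1 (1.83) and Fosl1 (1.22) had adjusted p-values of 0.0689, 0.114 and 0.0832 (limma), and were likewise called only when pair 2 was left out. Arc, best known for its role at neuronal synapses, rose by 2.42 from a static median of 5.97 TPM. Myc, Klf6, Klf10, Ier2, Csrnp1 and Mafk completed the 14.

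Of this class, 3 factors were nearly silent. Npas4, best known from neurons, was between 0 and 0.0400 TPM in static cells and between 0.0562 and 0.714 TPM under flow, higher in 6 of 6 pairs (two-sided exact permutation test within pairs, p = 0.03125, the smallest it can give with 6 pairs). Egr4 was at most 0.0351 TPM and Nr4a3 at most 0.221 TPM in any of the 12 libraries, and each was higher in 1 of 6 pairs (exact permutation p = 1.0 for both). All 3 were under the filter and were left out of the fit. Nr4a2, the other member of the Nr4a family, passed the filter with a static median of 1.08 TPM and changed by 0.28.

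Feedback regulators of MAP kinase and receptor tyrosine kinase signalling formed the next group. Of 19 genes tested 7 rose (36.8%), 17 had a higher mean and the median change was 0.70. Without pair 1 the calls fell to 0, and without the pair as a block to 2. Dusp5, a nuclear phosphatase of ERK, went from 22.5 to 37.9 TPM in static cells (median 32.0) to 60.9 to 397 TPM under flow (median 147). No flow library fell within the static range, and the change was 2.36 ± 0.31 (SE, n = 6 pairs, limma adjusted p = 0.00643, and 0.0721 without pair 1). Dusp1, the broad phosphatase of ERK, p38 and JNK, rose by 1.73, Dusp6, the cytoplasmic phosphatase of ERK, by 1.32, and Dusp8 by 0.85. The receptor-level inhibitors Errfi1, which binds EGF receptors, and Spry2 rose by 1.61 and 1.41, and Phlda1 rose by 2.17. The change did not extend to the whole family: Dusp7 (0.01), Spred1 (0.04), Spred2 (-0.05) and Spred3 (-0.07) lay within 0.10 of 0, with adjusted p-values of at least 0.806 (limma).

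The stretches just upstream of 6 of the genes that rose are shown because they hold, in full, the binding letters of serum response factor (the CArG box) or of CREB and ATF factors (the cAMP response element, TGACGTCA), the factors through which serum and calcium act on immediate early genes. They are the 250 bases before the RefSeq start (GRCm38.p6), 5′ to 3′ on the gene's strand, with these elements in capitals and positions counted back from the start. Both strands were searched. Over 32851 RefSeq windows of this length, 1.47% held a CArG box and 1.55% the full cAMP response element. Counted by gene, over any of a gene's windows, these were 1.33% and 3.15% of the 9140 tested genes with windows, which had a mean of 1.28 windows each, against 1.67 for the genes that rose and up to 7 for Bdnf. Windows were at hand for 48 of the 68 genes (70.6%), too few for a share over the set, so any check on it is void. Among those 48, Dusp5, Egr2 and Zfp36 held a CArG box and Btg2, Dusp1, Dusp8, Epha2, Errfi1, Plk2 and Slc25a25 the cAMP response element. A match describes the letters and is not evidence of binding. Dusp5 (chr19:53528895-53529144, plus strand) holds 2 adjoining CArG boxes at -82 and -72.
Dusp5: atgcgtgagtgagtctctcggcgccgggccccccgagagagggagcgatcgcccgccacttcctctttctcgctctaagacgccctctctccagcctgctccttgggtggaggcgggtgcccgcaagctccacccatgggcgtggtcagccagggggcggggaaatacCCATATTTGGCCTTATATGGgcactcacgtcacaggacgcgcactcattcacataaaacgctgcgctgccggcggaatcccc
Egr2 (chr10:67537619-67537868, plus strand, 1 of its RefSeq starts) holds a CArG box at -72.
Egr2: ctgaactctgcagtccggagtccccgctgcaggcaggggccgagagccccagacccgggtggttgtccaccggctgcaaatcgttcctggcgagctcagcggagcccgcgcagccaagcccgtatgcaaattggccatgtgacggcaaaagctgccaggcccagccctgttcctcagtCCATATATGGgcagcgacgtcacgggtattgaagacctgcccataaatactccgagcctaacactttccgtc
Zfp36 (chr7:28379229-28379478, minus strand) holds a CArG box at -58.
Zfp36: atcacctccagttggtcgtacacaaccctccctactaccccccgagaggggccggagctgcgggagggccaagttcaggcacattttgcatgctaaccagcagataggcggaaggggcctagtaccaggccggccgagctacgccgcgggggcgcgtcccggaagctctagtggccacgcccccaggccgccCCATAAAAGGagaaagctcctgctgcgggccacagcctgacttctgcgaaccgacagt
Btg2 (chr1:134079156-134079405, minus strand) holds the cAMP response element at -166.
Btg2: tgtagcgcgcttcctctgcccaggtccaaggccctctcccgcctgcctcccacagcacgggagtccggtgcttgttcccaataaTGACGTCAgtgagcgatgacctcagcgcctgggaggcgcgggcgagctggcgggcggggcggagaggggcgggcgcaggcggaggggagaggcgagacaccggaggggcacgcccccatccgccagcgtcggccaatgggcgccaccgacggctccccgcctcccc
Dusp1 (chr17:26508473-26508722, minus strand) holds it at -143.
Dusp1: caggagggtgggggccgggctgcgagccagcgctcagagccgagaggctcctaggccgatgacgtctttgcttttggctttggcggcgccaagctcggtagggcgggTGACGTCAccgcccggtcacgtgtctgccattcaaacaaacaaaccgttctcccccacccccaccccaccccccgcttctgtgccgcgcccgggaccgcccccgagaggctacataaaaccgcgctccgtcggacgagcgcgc
Plk2 (chr13:110394794-110395043, plus strand) holds it at -62.
Plk2: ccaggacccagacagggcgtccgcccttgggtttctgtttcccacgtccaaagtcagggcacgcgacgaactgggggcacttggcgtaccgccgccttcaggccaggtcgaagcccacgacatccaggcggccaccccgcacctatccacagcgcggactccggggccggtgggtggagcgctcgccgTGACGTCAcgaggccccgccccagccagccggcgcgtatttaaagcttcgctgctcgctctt

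Among targets of YAP and TAZ, the coactivators that respond to cell shape and tension, a few genes held the calls. Of 20 genes tested 4 rose (20%), and the median change of the list was 0.13. Without pair 1 there was 1 call, and without the block there were 2. Ccn2 (connective tissue growth factor, chr10:24595442-24598683 on the plus strand, 4 exons) was between 39.1 and 92.2 TPM in static cells (median 55.7) and between 233 and 761 TPM under flow (median 452). Static replicate 6 was the lowest of the 12 libraries and flow replicate 6 the highest, the groups did not overlap, and the change was 2.91 ± 0.25 (SE, n = 6 pairs, limma adjusted p = 0.000599). Ccn1, a matricellular protein of the same family, was already at 345 to 407 TPM in static cells (median 396) and reached 608 to 2534 TPM under flow (median 1682), a rise of 1.95 ± 0.21 (SE, n = 6 pairs, limma adjusted p = 0.00203, and 0.0550 without pair 1). Ankrd1 and F3, the coagulation initiator tissue factor, rose by 1.27 and 1.81. In the list 16 had a higher mean and 4 a lower one, and 8 of the 20 (40%) were higher at an unadjusted p-value under 0.05, against 3.94% of all genes. Among the uncalled targets, Tgfb2 (0.62), Gadd45b (0.47) and Amotl2 (0.45) had the higher means. Others lay close to 0 or went the other way, such as Axl at 0.06, Ajuba at -0.16 and Nt5e at -0.21.

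Cytoskeletal targets of serum response factor and its MRTF coactivators, which answer to actin assembly, had small changes of mostly 1 sign. None of 24 tested was called (2 without pair 2), and the median change was 0.15. A higher mean was seen in 20, and 10 of the 24 (41.7%) were higher at an unadjusted p-value under 0.05, against 3.94% of all genes. Actg1 and Actb, the cytoplasmic actins, changed by 0.41 and 0.36 (limma adjusted p = 0.0976 and 0.190). In pair 2, 17 of the 24 were lower under flow, against 1 of 24 in pair 6. Vcl (0.35) and Zyx (0.29), proteins of focal adhesions, showed the same spread, with -0.11 and -0.16 in pair 2.

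**Figure D3:**
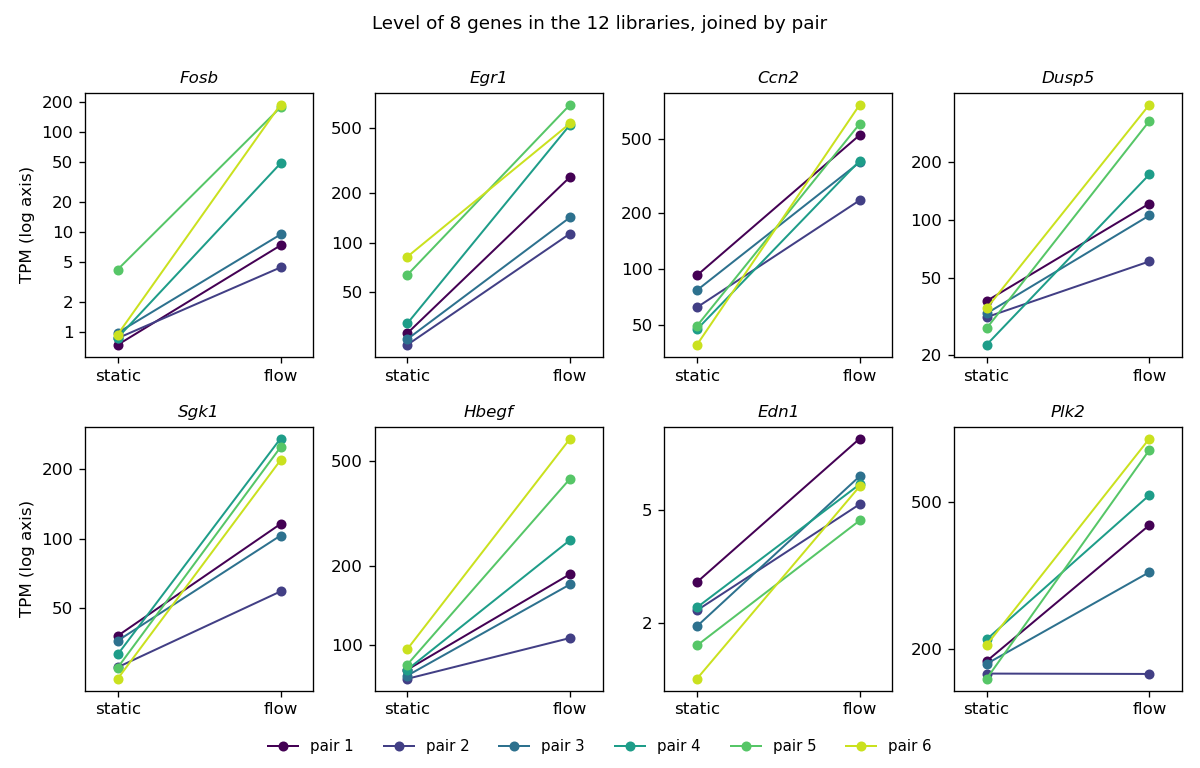
TPM of 8 genes in static and flow libraries, on log axes of different range, with a line joining the libraries of each pair (colours). Fosb, Egr1, Ccn2, Dusp5, Sgk1, Hbegf and Edn1 have every flow library above every static library. In Plk2, pair 2 runs flat, and the other 5 pairs rise.

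Of 17 secreted growth factors tested, 7 rose (41.2%) and the median change was 0.62. There were 2 calls without pair 1 and 2 without the block. Hbegf, an activating ligand of EGF receptors, was between 74.2 and 96.2 TPM in static cells (median 80.3) and between 106 and 611 TPM under flow (median 218). The flow libraries all lay above the static range, and the rise was 1.58 ± 0.23 (SE, n = 6 pairs, limma adjusted p = 0.0109, and 0.105 without pair 1 and 0.0887 without the block). Ereg, another EGF receptor ligand, rose by 1.25, while Tgfa, a further one, changed by -0.02. Edn1 (chr13:42301476-42307990 on the plus strand, 5 exons), which encodes the vasoconstrictor peptide endothelin-1, had the most even response. It was between 1.27 and 2.79 TPM in static cells (median 2.08) and between 4.60 and 8.95 TPM under flow (median 6.13), and its change in single pairs was between 0.96 and 1.64, with a mean of 1.26 ± 0.11 (SE, n = 6 pairs, limma adjusted p = 0.000599). Gdf15, a stress-induced hormone of the TGF-beta family, rose by 1.04. Its groups overlapped, since static replicate 5, at 258 TPM, was above the flow libraries of replicates 1 to 3. Bdnf, a neurotrophin, rose by 1.09, and Inhba, a subunit of activin, by 0.74.

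Some cytokines and chemokines gave large changes that were uneven over pairs, while others, such as Il33 (-0.07), Ccl5 (-0.04) and Cxcl12 (0.05), lay near 0. None of 13 tested was called, and 11 had a higher mean. Of the 13, 7 (53.8%) were higher at an unadjusted p-value under 0.05, against 3.94% of all genes. The median change was 0.61, and 0.33 without pair 6. Cxcl1, a neutrophil chemoattractant, changed by -0.02, 0.73 and 1.44 in pairs 2, 3 and 1 and by 3.40, 4.83 and 5.33 in pairs 4, 5 and 6. The flow libraries of replicates 5 and 6 were the highest, and the mean change of 2.62 had an SE of 0.62 (limma adjusted p = 0.123). Csf2, Lif and Ccl2 had mean changes of 1.93, 1.70 and 1.13, with their largest changes also in pairs 5 and 6. Without pair 2, 7 of the 13 were called. Of NF-kB feedback genes, 1 of 10 rose, Tnfaip3 by 1.80, a count that was 0 without pair 1, 4, 5 or 6, with median-of-ratios scaling or without the block, and 3 without pair 2. Nfkbia changed by at most 0.08 in pairs 1 to 3 and by 1.17, 1.99 and 2.59 in pairs 4 to 6.

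In the prostaglandin pathway 1 of 8 genes rose (2 without pair 2). Ptgs2, the inducible cyclooxygenase (chr1:150100031-150108227 on the plus strand, 10 exons), was between 2.31 and 5.46 TPM in static cells (median 2.95) and between 6.92 and 53.8 TPM under flow (median 17.2). The groups did not overlap, and the change was 2.12 ± 0.22 (SE, n = 6 pairs, limma adjusted p = 0.00155). The constitutive cyclooxygenase Ptgs1 was lower in 5 of 6 pairs, with a mean change of -0.28, and was not called (limma adjusted p = 0.449). The receptor gene Ptger4 changed by 1.49 (limma adjusted p = 0.110).

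Of 15 genes of the TGF-beta and BMP response, 7 rose (46.7%), with a median of 0.45. The count was 1 without pair 1, 4 without pair 5 or pair 6 and 2 without the block. Smad7, the inhibitory Smad that limits TGF-beta signalling, was between 19.9 and 29.2 TPM in static cells (median 24.2) and between 32.6 and 88.4 TPM under flow (median 58.5). No libraries of the groups overlapped, and the rise was 1.23 ± 0.12 (SE, n = 6 pairs, limma adjusted p = 0.00115). The co-repressors Skil and Tgif1 rose by 0.63 and 0.83. Among the Id genes, inhibitors of helix-loop-helix factors, Id1 and Id3 rose by 1.23 and 0.65, Id4 changed by 0.45 without being called, and Id2 changed by -0.04 and was higher in 3 of 6 pairs. Thbs1, an activator of latent TGF-beta, rose by 1.47. Tgfb1 itself changed by -0.13.

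In the list for plasminogen activation and pericellular proteolysis, 3 of 10 genes tested rose and all 10 had a higher mean (median 0.52). The 3 calls became 0 without pair 1, 5 without pair 2, and 1 without any other pair, with median-of-ratios scaling or without the block. Plaur, the receptor that holds urokinase at the cell surface, rose by 0.93, and F3 was also among the calls. The activators themselves, Plau and Plat, changed by 0.35 and 0.27 and were not called (limma adjusted p = 0.196 and 0.379).

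Genes of mRNA decay and growth arrest held 8 calls among 19 tested (42.1%), with a median of 0.32. The calls were 0 without pair 1, 5 without pair 4 or pair 6, 3 without pair 5, 5 with median-of-ratios scaling and 0 without the block. The tristetraprolin family, which destroys messages with AU-rich elements, rose in all 3 listed members, Zfp36 by 1.97, Zfp36l1 by 0.97 and Zfp36l2 by 0.69. Zfp36 was between 4.78 and 8.41 TPM in static cells (median 5.31) and between 8.65 and 82.2 TPM under flow (median 24.8). Its lowest flow library, replicate 2, was just above the highest static library, replicate 5, and the call was lost without pair 1, 4, 5 or 6 (limma adjusted p between 0.0557 and 0.127). Btg2, an antiproliferative cofactor of deadenylation, rose by 2.13 ± 0.37 (SE, n = 6 pairs, limma adjusted p = 0.0291), from a static median of 10.3 TPM (highest 18.6) to a flow median of 42.3 TPM (range 17.1 to 245), with overlap of the lowest flow library, and was not called without pair 1, 4, 5 or 6 (limma adjusted p between 0.0743 and 0.180). The polo-like kinases Plk2 and Plk3 rose by 1.21 and 1.00, Gadd45g by 1.08 and Ier3 by 1.65. Other brakes of the cycle did not follow: Gadd45a changed by -0.03, Cdkn1b, which encodes p27, by -0.26 and Ccng2 by -0.37, none of them called, and Cdkn1a, which encodes p21, changed by 0.32 (limma adjusted p = 0.165). Of 26 genes of the cell cycle machinery none was called, 14 had a higher and 12 a lower mean (21 and 5 with median-of-ratios scaling, 20 and 6 without pair 2 or without pair 6), and 1 had an unadjusted p-value under 0.05. Their median change was 0.004 and their range ran from -0.08 in Cdt1 to 0.17 in Ccnd1.

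Of the 68 genes, 17 belonged to none of the 22 pathway lists. Sgk1, the serum and glucocorticoid regulated kinase known for its control of epithelial sodium transport, was between 24.9 and 38.1 TPM in static cells (median 29.8) and between 59.2 and 270 TPM under flow (median 167). The groups did not overlap, and the rise was 2.23 ± 0.27 (SE, n = 6 pairs, limma adjusted p = 0.00471, and 0.0565 without pair 1). Trib1, a pseudokinase adaptor, rose by 1.72, Cited2, a cofactor that competes with HIF-1 for its coactivator, by 1.54, and Kctd11 by 1.45. Hes1, the target and repressor of Notch signalling, rose by 0.89 and by between 0.67 and 1.17 in every pair. Nppb, which encodes the B-type natriuretic peptide and is a classic stretch-responsive gene of cardiac muscle, rose from a static median of 0.61 TPM to 1.61 TPM. Cldn4, a claudin of tight junctions, rose by 0.83, and Epha2, Pvr, Enc1, Sgms2, Arid5b, Itprip, Slc25a25, Nabp1, Cdc42ep3 and Stk40 rose by between 0.64 and 0.93.

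**Figure D4:**
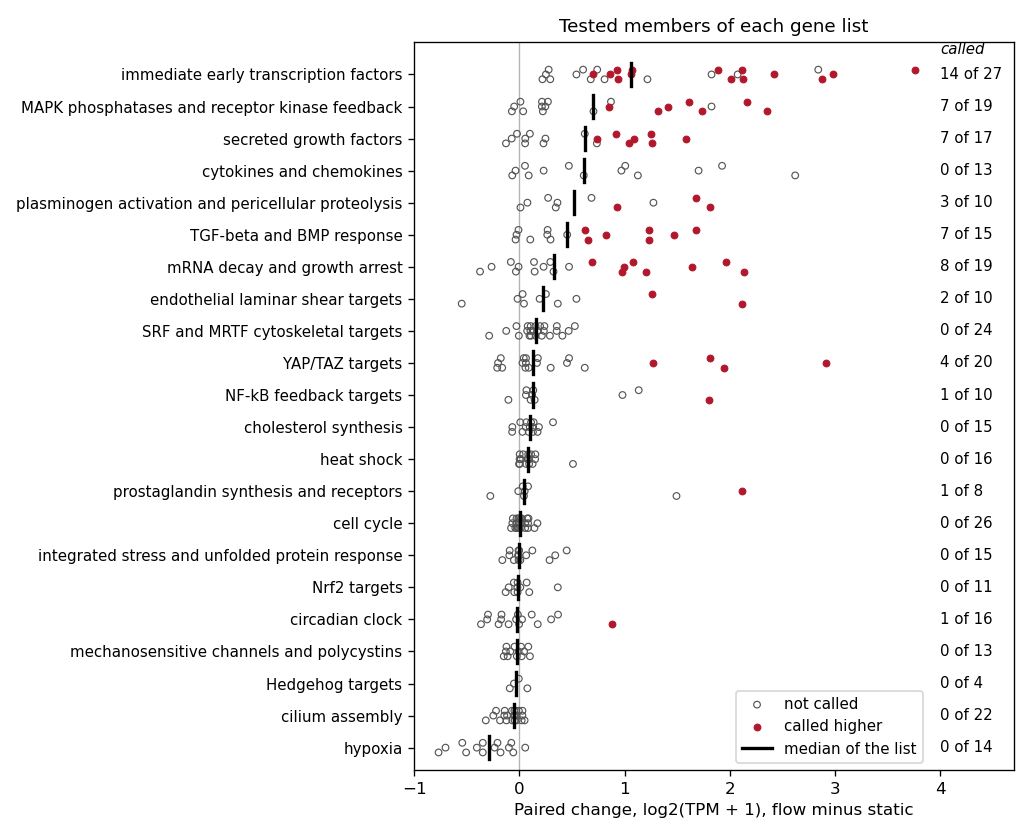
Change in log2(TPM + 1), flow minus static, of the tested members of 22 gene lists (rows, ordered by their median). Each circle is a gene, red where it rose at the threshold and open where it was not called, the black bar is the list's median, and the count of genes called is printed at the right. Immediate early factors lie farthest to the right, with 14 of 27 called, and hypoxia genes farthest to the left, with 0 of 14.

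Genes for candidate flow sensors and for the cilium were expressed, and none was called. None of 13 mechanosensitive channels and polycystins was called or passed an unadjusted p-value of 0.05, and their changes ran from -0.15 in Panx1 to 0.10 in Pkhd1. Pkd2 was between 69.1 and 95.7 TPM under flow and between 67.8 and 94.1 TPM in static cells, Piezo1 between 44.2 and 87.2 TPM and between 48.1 and 84.7 TPM, and Trpv4 between 13.2 and 30.4 TPM and between 17.5 and 30.7 TPM. These ranges overlapped almost entirely. Of 22 genes of cilium assembly none was called, and 18 had a lower mean (81.8%, against 61.2% of all genes), 5 of them at an unadjusted p-value under 0.05 (22.7%, against 7.17%). These counts were 16 and 3 with median-of-ratios scaling, 16 and 1 without pair 6, and 18 and 1 without the block. Of all genes, 614, 364 and 204 were lower at that p-value in the same settings. Ift88 itself changed by -0.07 ± 0.12 (SE, n = 6 pairs, limma adjusted p = 0.861).

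In the remaining lists 1 of 16 clock genes rose (Nfil3, by 0.88, not called without pair 1 or without the block), with Per1 at 0.37 (limma adjusted p = 0.0881) and Dbp at -0.36. Of 10 genes known to answer laminar shear in endothelium, Edn1 and Ptgs2 rose, Klf2 and Klf4, the factors that mark that response, changed by 0.25 and 0.54 without being called, and Txnip, an inhibitor of thioredoxin, was lower in 5 of 6 pairs at -0.55 (limma adjusted p = 0.246). No direction was set for the genes of this list, so these changes do not say whether the endothelial response was shared. No gene was called among 16 of heat shock (1 without pair 2), 15 of the integrated stress and unfolded protein responses, 11 Nrf2 targets, 15 of cholesterol synthesis and 4 Hedgehog targets.

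Genes induced by hypoxia were the list with the lowest values. None of 14 was called, 13 had a lower mean under flow (92.9%, against 61.2% of all genes), and 10 of these had an unadjusted p-value under 0.05 (71.4%, against 7.17%). Those 10 became 6 without pair 6, where 364 of 11349 genes were lower at that p-value. Without the pair as a block they became 0, where 204 of 11388 genes were lower. The median of the list was -0.29, and -0.26 with median-of-ratios scaling. Bnip3, a mitophagy receptor, was at 106 to 252 TPM in static cells (median 225) and at 53.4 to 378 TPM under flow (median 111). The flow library of replicate 2 was the highest of the 12, the groups overlapped, and the mean change was -0.70 with an SE of 0.21 (limma adjusted p = 0.273). Ankrd37 changed by -0.77, and the oxygen sensors Egln3 and Egln1, the latter encoding PHD2, by -0.54 and -0.35. Vegfa, the angiogenic ligand, was the exception at 0.06.

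The hypoxia list ran in opposite directions across pairs. Its median was -0.45, -0.51, -0.15, -0.33 and -0.58 in pairs 1, 3, 4, 5 and 6 and 0.30 in pair 2, where none of the 14 genes was lower. In 10 of the 14, pair 2 was the only pair with a higher value under flow. Pair 2 was also the pair with the smallest change of the immediate early factors, at a median of 0.40 against 0.64 to 1.90 in the others. Without pair 2 the hypoxia median was -0.39, all 14 were lower, and 4 were called. What set pair 2 apart was not tested.

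**Figure D5:**
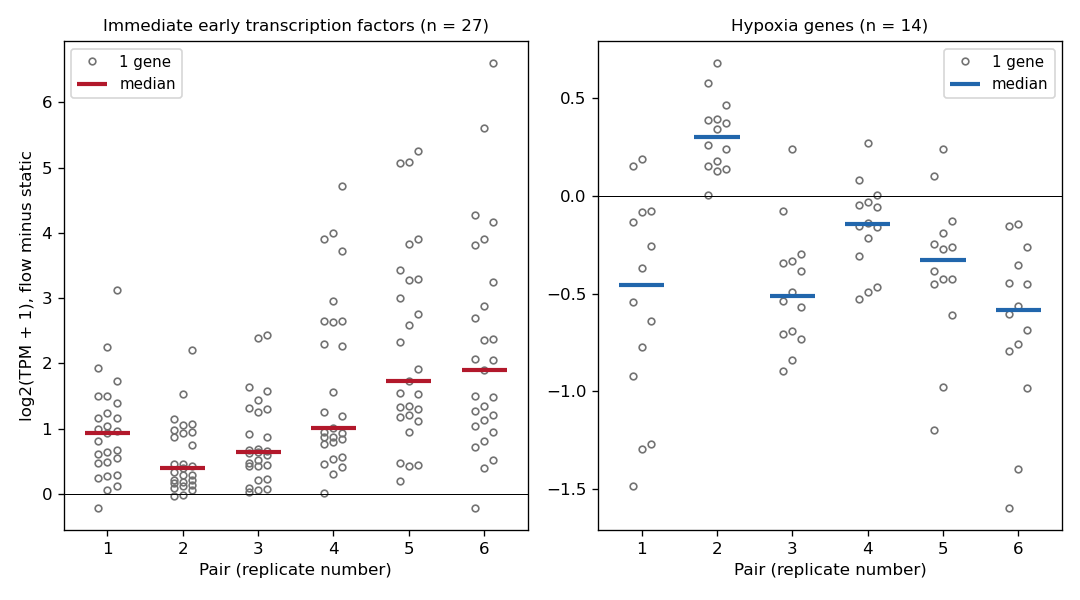
Change in log2(TPM + 1), flow minus static, of the tested immediate early transcription factors (left, 27 genes) and hypoxia genes (right, 14 genes) in each of the 6 pairs. Circles are genes and bars are medians, and the vertical axes differ. In pair 2 the factors have their lowest median, 0.40, and the hypoxia genes their only positive one, 0.30.

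Lower expression of single genes stayed under the threshold. Of all genes 246 (2.16%) were lower in 6 of 6 pairs. Among those with a mean of at least 5 TPM, the smallest p-values belonged to Morn1 (-0.49), Lman2l, a cargo receptor of the secretory pathway (-0.37), Zfp950 (-0.56), Zfp157 (-0.54), Arrb2, which encodes beta-arrestin 2 (-0.24), Zfp647 (-0.45), Gm49369 (-0.43) and Mtif3 (-0.27). Morn1 was between 4.14 and 9.89 TPM in static cells (median 5.13) and between 2.72 and 5.84 TPM under flow (median 3.92), with an SE of 0.10 and an adjusted p-value of 0.0507 (limma). The groups overlapped for each of the 8, and their adjusted p-values ran up to 0.119 (limma).

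The 68 genes were then read in the siRNA libraries, which share no sample with the flow comparison. There Ift88 was at 1.30 ± 0.33 TPM (SD, n = 4) with its siRNA and at 4.14 ± 0.05 TPM (SD, n = 4) with control siRNA, a change of -1.17 (limma adjusted p = 0.00212). All 68 genes were tested in that table. Id3 alone was called, at 257 ± 18.8 TPM (SD, n = 4) against 169.5 ± 36.2 TPM (SD, n = 4) and a change of 0.62 (limma adjusted p = 0.0480). Called in either direction were 25 of all 11209 genes (0.223%). Btg2 (0.44), Fos (0.56) and Dusp1 (0.56) passed the adjusted p-value alone, so that 4 of the 68 were higher and 0 lower, where 51 of all genes were higher (0.455%) and 20 lower (0.178%). At an unadjusted p-value under 0.05, 16 of the 68 were higher and 7 lower, together 33.8%, against 13.9% of all genes. The 68 changes had a median of 0.06 and lay between -0.44 for Spry2 and 0.62 for Id3. The series holds no static cells with these siRNAs, so these libraries give no measure of a flow effect.

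A property that the calls did not use was the structure of the genes. In GENCODE M21 on GRCm38, where all 68 genes were matched, the genes that rose spanned a median of 8832 bases (quartiles 3484 and 16660) with 4 exons, and all genes tested a median of 23720 bases (quartiles 10300 and 54180) with 8 exons. A span under 10000 bases was found in 54.4% of the 68 and in 24.4% of all genes tested. The longest annotated transcripts were closer, with medians of 2960 and 3381 bases.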

How the data were processed

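RNA-seq libraries of DC2 cells were analysed, 6 under flow and 6 static, with 4 Ift88 siRNA and 4 control siRNA libraries as a second readout. Groups and replicate numbers followed the labels. The deposited values are TPM for 21509 protein-coding genes, made by the authors by pseudoalignment of poly(A)-selected, directional paired reads to the Ensembl mouse transcriptome and summing to genes. The submitters' processing notes name kallisto 0.46.2, fastp 0.20.0, FastQC 0.11.8 and MultiQC 1.8, while the methods name Trimmomatic. Relative scaling named there is absent from TPM, which keep no read depth. Each experiment has its own table, and no value was compared between tables. Of the genes, 78 have no symbol.

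From the TPM, log2(TPM + 1) was fitted for genes averaging 1 TPM or more with limma 3.58.1 in R 4.3.3 (lmFit, eBayes with trend), with the replicate number as a block, and adjusted by Benjamini-Hochberg. The call threshold was an adjusted p-value of 0.05 with a fold change above 1.5. The replicate numbers, which the labels do not explain, were set as pairs by the plan of the comparison. Same-numbered libraries deviated together from their group means. The correlations over genes were 0.294, 0.463, 0.425, 0.468, 0.662 and 0.600 for replicates 1 to 6. Replicate 1 correlated nearly as much with another number (0.263), and replicate 3 more (0.509). These correlations therefore do not show that each number marks a pair. The siRNA table was fitted without a block. The paired fit was also tested on simulated data for flow against static, where 200 of 11356 genes differed by 1 in log2. It recovered 95.5% of them, and 0.521% of calls were false. In the libraries themselves, the rise of the 68 genes varied over the pairs, with a median coefficient of variation of 51.3%. Recovery and false calls with such uneven rises were not tested, so these percentages hold for the simulated data only. Python 3.11.15, numpy 2.4.6, pandas 2.3.3, scipy 1.17.1 and matplotlib 3.10.9 were used.

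Named genes are the 12 called with the largest changes in 6 of 6 pairs, the 8 with the smallest adjusted p-values, up to 4 called members of each of 22 pathway and 7 marker lists with the lowest member, up to 8 lower genes, immediate early factors under the filter, and named channels and markers. Further list members and all other called genes were named after their values were seen, except a few that are not reported here and are left out of the gene plots but kept in the counts. Members, lists and tests were chosen with earlier results of these data known. Alternatives covered the block, filter, pseudocount, scaling, library weights, fold threshold, the doubtful label, subsets of replicates and each replicate left out. Promoters are from RefSeq (GRCm38.p6) and gene structures from GENCODE M21.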

Additional observations from a re-analysis of the deposited data

Results flagged for a closer look

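Among 20 genes examined with 6 libraries a group, 5 values lay far from the rest of their group by Dixon's criterion at 95%, which chance alone meets in about 1 of 20 groups. In static cells, replicate 5 held 4.2 TPM of Fosb, where the next highest library held 0.98 TPM, and 13.3 TPM of Hes1, where the next held 8.52 TPM. Both genes were still higher under flow in pair 5. The remaining values were in genes near 0. Egr4 was at 0.0326 TPM in flow replicate 1 and at 0.0351 TPM in static replicate 6 and at 0 in every other library. Nr4a3 was at 0.197 TPM in static replicate 6, with the next static library at 0.062 TPM.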

How the results depend on the processing

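The count of genes called higher, 68 in the paired fit, was 12 without the replicate block, 0 without a filter on low TPM (567 genes higher at an unadjusted p-value under 0.05, of 18564 tested), 42 with median-of-ratios scaling, 114 with library weights, 127 in replicates 4 to 6 alone, and 0 with flow replicate 6 counted as static (244 higher at an unadjusted p-value under 0.05). With each replicate left out in turn it was between 8 (without replicate 1) and 135 (without replicate 2). It stayed within 1.5 times of 68 with a filter of a mean of 5 TPM, a pseudocount of 0.1, no fold threshold or replicates 1 to 3 alone. The count called lower, 0, was 29 with library weights, 3 in replicates 1 to 3, 21 in replicates 4 to 6, and between 0 and 58 with a replicate left out, the highest without replicate 2. Of the 68 genes, the siRNA table called 1, which became 0 without a filter or with scaling, 2 with a pseudocount of 0.1, 4 with no fold threshold, and between 0 and 2 with a library left out. The 68 kept a higher mean without any 1 pair. Among the 59 named genes that were tested (53 with a filter of a mean of 5 TPM), some uncalled ones near 0 changed sign. Pkd2 (0.02) and Id2 (-0.04), for example, did so when 1 pair was left out. The causes were not tested. The depth of the libraries is not in TPM, so the smallest change that could be detected at low expression is unknown.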

Other observations

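Zinc finger genes named Zfp, Zscan or Zkscan, a group chosen after the values were seen, were lower under flow more often than other genes. Of 334 tested, 270 had a lower mean (80.8%), against 61.2% of all genes tested, and 52 (15.6%) were lower at an unadjusted p-value under 0.05, against 7.17% of all genes. Their median change was -0.10, against -0.03 for all genes, -0.08 against -0.0005 with median-of-ratios scaling, and -0.06 against -0.01 without pair 6. It was 0.08, 0.0008, -0.13, -0.16, -0.11 and -0.29 in pairs 1 to 6, and -0.02 over pairs 1 to 3 against -0.18 over pairs 4 to 6. These genes had a median static level of 6.97 TPM, against 24.3 TPM for all genes tested, and the part of low expression in this pattern was not tested.

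A further 5 genes passed the adjusted p-value and not the fold change, each higher in 6 of 6 pairs: the serine kinases Pim3 (0.39) and Pim1 (0.39), the cytokine Clcf1 (0.49), Sertad1 (0.58) and Mllt11 (0.38). Pim3 was the most abundant, with 187 ± 22.8 TPM under flow against a static 142 ± 5.55 TPM (SD, n = 6).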
